A study of Mus musculus with 4 samples.

Results

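The cytosolic ribosomal protein genes encode the protein part of the 40S and 60S subunits of the ribosome. They were taken from the count table by gene symbol: protein-coding genes named Rps or Rpl followed by a number, together with Rpsa, Rplp0, Rplp1 and Rplp2, without the kinases of the Rps6k family and without pseudogenes. This gave 85 genes among the 47729 gene rows, 34 for the small (40S) and 51 for the large (60S) subunit. Of these, 76 (31 small, 45 large) are referred to as core members, the proteins found in most ribosomes, and 9 are paralogs or genes that merely share the name. Rpl41 was not analysed here, because no symbol table used paired it with a gene ID.

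The study concerned iron and gene expression in regulatory T (Treg) cells. CD4 T cells of C57BL/6 mice (spleen per the labels) were driven towards induced Treg (iTreg) cells, which switch on the transcription factor Foxp3 in culture. All cultures were given IL-2 at 100 U/mL, TGF-β at 5 ng/mL and 5 µg/mL of each of 2 antibodies, against IFN-γ and against IL-4, and per the study's methods naive cells were activated through CD3 and CD28. One group received 50 µM FeSO4 (ferrous sulfate, a soluble iron salt) and the other PBS (Mock), both for 4 days, with 2 libraries per group. No transgene or deletion was named for these cultures. The methods describe the pairs as coming from independent experiments, but no label ties a replicate number to an experiment.

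A ribosome holds 1 copy of nearly every core protein, and cells make these proteins in matched amounts. Their mRNAs are short and abundant, and most begin with a terminal oligopyrimidine (TOP) tract, a C followed by a run of C and T bases at the start of the transcript. Through this tract the protein Larp1 and the kinase complex mTORC1 control how strongly the mRNAs are translated and how stable they are. Naive T cells enlarge their ribosome pool after activation, and several ribosomal proteins also act outside the ribosome, for example in restraining Mdm2.

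The gene rows held 39747890 and 40859178 counts in Mock and 35183187 and 37735336 in FeSO4. Values are given as CPM (counts scaled by library size, with the sizes adjusted by TMM, the trimmed mean of M-values). Where a library had 0 counts of a gene, up to 3 counts could have gone unseen, which equals 0.0717 to 0.0876 CPM. Of the 6 markers of CD4 T or Treg cells all were detected, with a summed level of 3110 to 3446 CPM. Foxp3, the defining marker, was at 587 and 693 CPM in Mock and at 376 and 472 CPM in FeSO4, below both Mock libraries in each FeSO4 library, and its part in any result was not tested. Markers of B cells (4 of 4 detected) summed to 2.38 to 3.38 CPM, those of CD8 T cells (2 of 2) to 9.04 to 11 CPM and those of myeloid cells (4 of 4) to 1.49 to 6.04 CPM. Both NK cell markers were at 0 counts in every library. The 2 erythroid markers with a row summed to 19.8 and 24.9 CPM in Mock and to 32.6 and 37.6 CPM in FeSO4, nearly all of it the globin gene Hba-a1, and their part in any result was not tested. In bulk RNA of this kind, fewer cells of a type and less RNA per cell cannot be told apart, and the RNA content per cell was not measured.

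The transcript starts of 10 core members are shown because the TOP tract lies there. They belong to the 5 genes with the smallest and the 5 with the largest p in the comparison of FeSO4 with Mock, among core members with a start window in the RefSeq table (GRCm38.p6), so they were chosen after their values were seen. Each window runs from 10 bases before the annotated start to 20 bases from it on, 5′ to 3′ on the gene's strand, and capitals mark its longest run of C and T that begins with C. The 5 genes of smallest p follow first, then the 5 of largest p.
Rpl11: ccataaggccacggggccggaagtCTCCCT
Rpl39: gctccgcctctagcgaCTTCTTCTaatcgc
Rpl14: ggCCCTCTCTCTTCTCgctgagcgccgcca
Rpsa: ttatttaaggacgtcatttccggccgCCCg
Rpl7a: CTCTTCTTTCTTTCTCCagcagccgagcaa
Rplp0: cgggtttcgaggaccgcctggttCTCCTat
Rpl10a: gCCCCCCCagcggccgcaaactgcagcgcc
Rpl24: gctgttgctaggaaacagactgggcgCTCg
Rpl37: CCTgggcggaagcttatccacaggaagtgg
Rps26: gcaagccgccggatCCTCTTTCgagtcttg

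The windows lie at chr4:136053374-136053403 (minus strand) for Rpl11, chrX:37085203-37085232 (minus strand) for Rpl39, chr9:120571507-120571536 (plus strand) for Rpl14, chr9:120127756-120127785 (plus strand) for Rpsa and chr2:26910797-26910826 (plus strand) for Rpl7a. Those of the other 5 genes lie at chr5:115559457-115559486 (plus strand) for Rplp0, chr17:28328461-28328490 (plus strand) for Rpl10a, chr16:55966265-55966294 (plus strand) for Rpl24, chr15:5116603-5116632 (plus strand) for Rpl37 and chr10:128626487-128626516 (minus strand) for Rps26. All 10 span an annotated transcript start, with the last 20 bases in the first exon. The longest runs were 17 bases in Rpl7a and 14 in Rpl14, and the shortest were 3 in Rpsa, Rpl24 and Rpl37. In the first set the runs were 6, 8, 14, 3 and 17 bases long and in the second 5, 7, 3, 3 and 8, in the order shown, and no test was made on them. Runs were counted within the window only. Those of Rpl11, Rpl7a and Rpl37 reach its edge, so they may be longer in the genome. A start used in these cells may differ from the annotated one, so a short run says only that these letters are not in this window.

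Of the 85 genes, 64 had a window, among them 56 core members. A run of at least 7 C or T bases that begins with C was searched on the gene's strand and within the window only. It occurred in 23 of the 56 core windows (41.1%), and in 3640 of 27025 windows of all RefSeq genes (13.5%). It was found in 10 of 23 small subunit genes and in 13 of 33 large subunit genes. The difference in fold change between genes with and without the run was not tested. The median log2 fold change was 0.29 over the 23 core members with the run, of which 21 were called higher in FeSO4 (10.9% of all genes tested were), and 0.26 over the 33 without it, of which 28 were higher.

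Ribosomal protein mRNAs took a larger part of the counts in FeSO4 than in Mock. They held 7.91 and 7.56% of all gene counts in the Mock libraries and 8.90 and 8.82% in the FeSO4 libraries (95% Wilson intervals, for counting error only, of 7.91 to 7.92, 7.55 to 7.57, 8.89 to 8.91 and 8.81 to 8.83%). Both FeSO4 libraries lay above both Mock libraries, and the Mock libraries lay further apart than the FeSO4 libraries. The mean rose from 7.74 ± 0.251% to 8.86 ± 0.061% (SD, n = 2 each), a difference of 1.12 percentage points and a ratio of 1.15. With 2 libraries per group, an exact permutation test cannot go below p = 0.333, so none was run on this share. This measure needs no scaling factor, but it was not corrected for the trend with transcript length described further on.

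By share of counts, the subunits moved together. Small subunit genes went from 3.26 ± 0.107 to 3.74 ± 0.024% of gene counts and large subunit genes from 4.48 ± 0.144 to 5.13 ± 0.037% (SD, n = 2 each). Per count on a large subunit gene there were 0.729 and 0.728 counts on small subunit genes in Mock and 0.728 and 0.729 in FeSO4. This ratio differed by no more between the groups than between the libraries of a group. With the trend of transcript length removed, as described further on, the median log2 fold changes were 0.10 (small) and 0.14 (large). The difference between these medians was not tested.

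**Figure D1:**
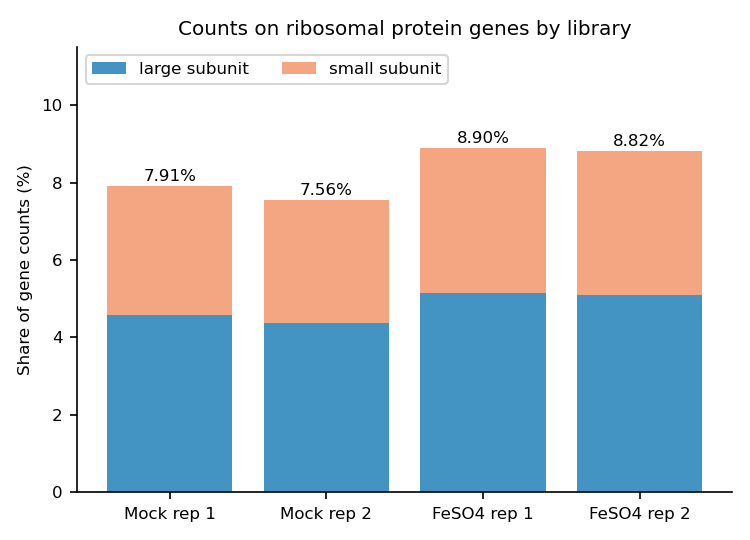
Share of all gene counts (percent) on large (blue) and small (orange) subunit ribosomal protein genes in each of the 4 libraries, with the sum above each bar. The Mock libraries stand at 7.91 and 7.56% and the FeSO4 libraries at 8.90 and 8.82%.

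Over single genes, 68 of the 83 members tested were higher with FeSO4 by edgeR's quasi-likelihood test (adjusted p under 0.05), and none was lower. Among all 13732 genes tested, 10.9% were higher and 9.17% lower. When the trend of fold change with transcript length was removed, as described further on, 26 members were higher (7 small and 19 large subunit genes) and 1 was lower, with a median of 0.11. Without that step, no member was lower at an unadjusted p under 0.05, and none was lower in DESeq2, where 73 members were higher (10.2% of all genes higher, 7.66% lower). Log2 fold changes are FeSO4 against Mock and are given ± SE, and the estimate was above 0 in 82 members. The changes were small: the median log2 fold change was 0.28, the middle 50% of members lay between 0.20 and 0.32, and the called members ranged from 0.18 to 0.50. Over all genes tested the median was -0.00052. Of the 76 core members, 71 lay within 0.15 of the core median of 0.28, against a median standard error of 0.06.

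By subunit, 29 of 34 small subunit genes were higher (median 0.27) and 39 of 49 large subunit genes tested (median 0.28), against 10.9% of all genes. Among the core members the counts were 28 of 31 and 38 of 45. In 80 of the 83 members both FeSO4 libraries lay above both Mock libraries, which held for 30.1% of all genes tested. The 3 members whose libraries overlapped were Rps26, Rps4y2 and Rpl39l. The study's own threshold (unadjusted p under 0.05, log2 fold change of 0.5 or more in size) was passed by 1 member, Rpl39. By it, 4.67% of all genes were higher and 5.73% lower.

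**Figure D2:**
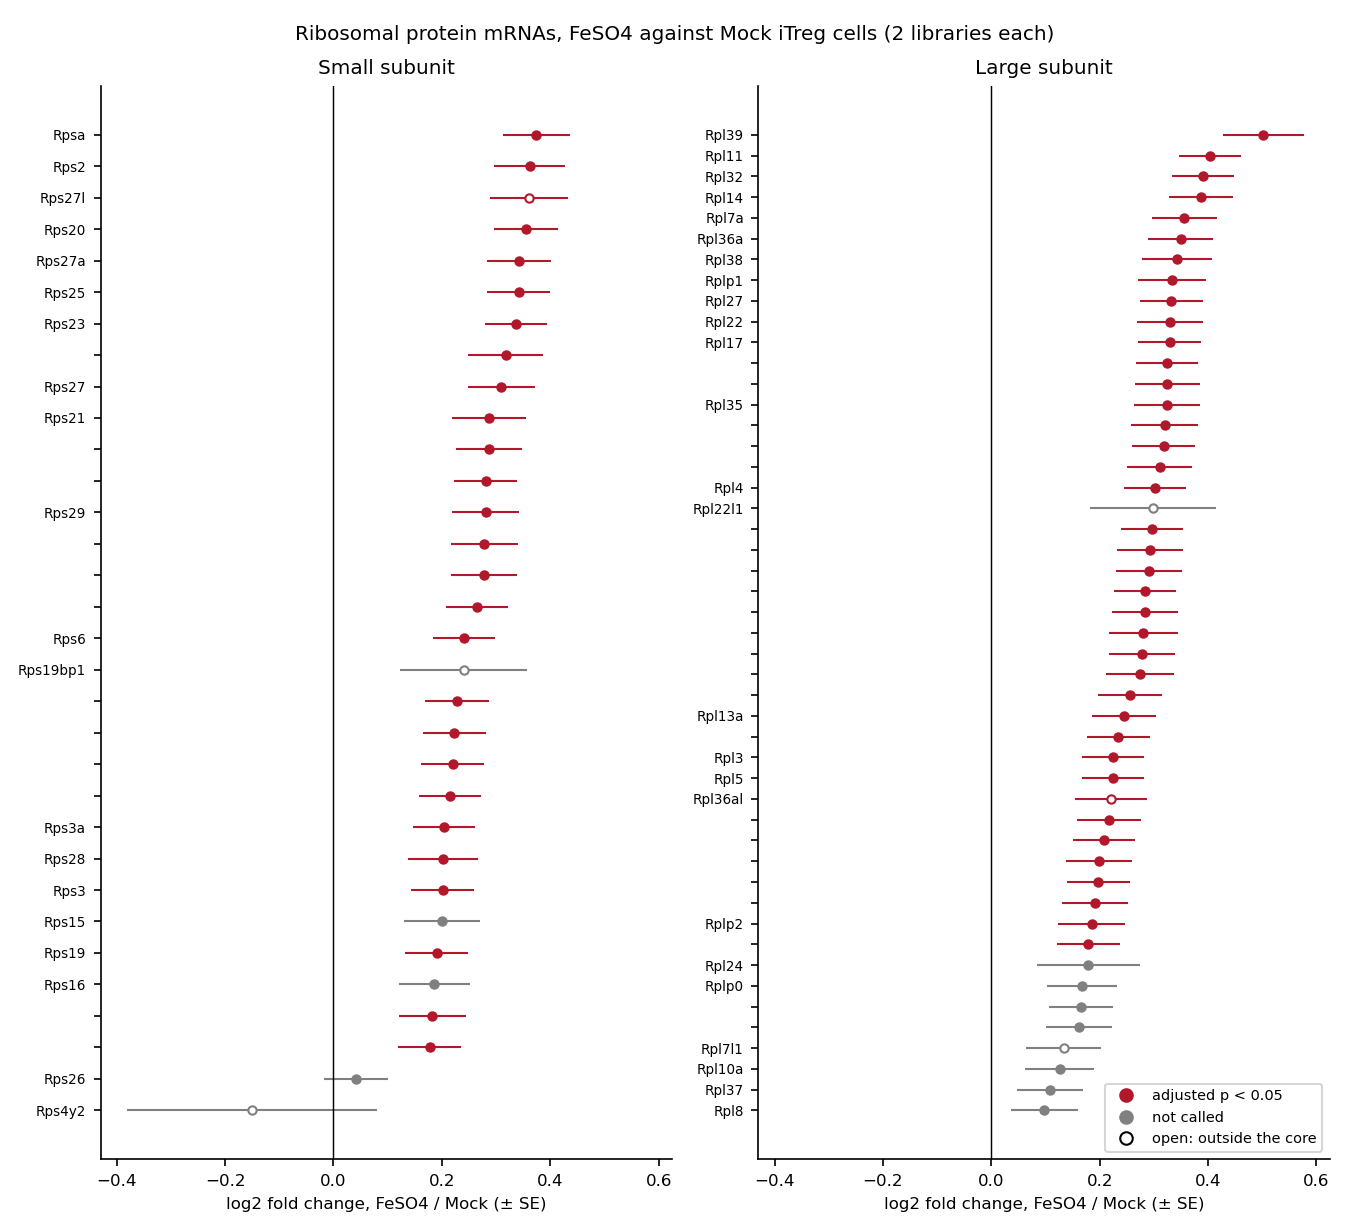
Log2 fold change of FeSO4 against Mock with its standard error for small (left) and large (right) subunit members, 80 of the 83 tested, red where the adjusted p was under 0.05, open where the gene is outside the core, with labels on the genes described singly. Rpl39l, at about 1 CPM with a standard error of 0.52, is among those not drawn. The called members drawn lie between 0.18 and 0.50, and Rps26 lies lowest among the core at 0.04.

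The replicates of a group were closer to each other than the groups were. Mock replicate 2 was below Mock replicate 1 in 68 of the 83 members, with a median log2 ratio of -0.06, and FeSO4 replicate 2 was below FeSO4 replicate 1 in 52 (median -0.02). The log2 ratio of FeSO4 to Mock had a median of 0.25 for the libraries numbered 1 and of 0.30 for those numbered 2, and both ratios were above 0 in 80 members. Across the 76 core members, the 2 ratios had a Spearman's rho of 0.55, a description over genes that share libraries. Each library was also left out in turn, which leaves a single library in its group. Leaving out FeSO4 replicate 1 left 48 members called higher (6.1% of all genes), leaving out FeSO4 replicate 2 left 54 (7.16%), leaving out Mock replicate 2 left 54 (7.2%), and leaving out Mock replicate 1 gave 70 (8.4%).

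**Figure D3:**
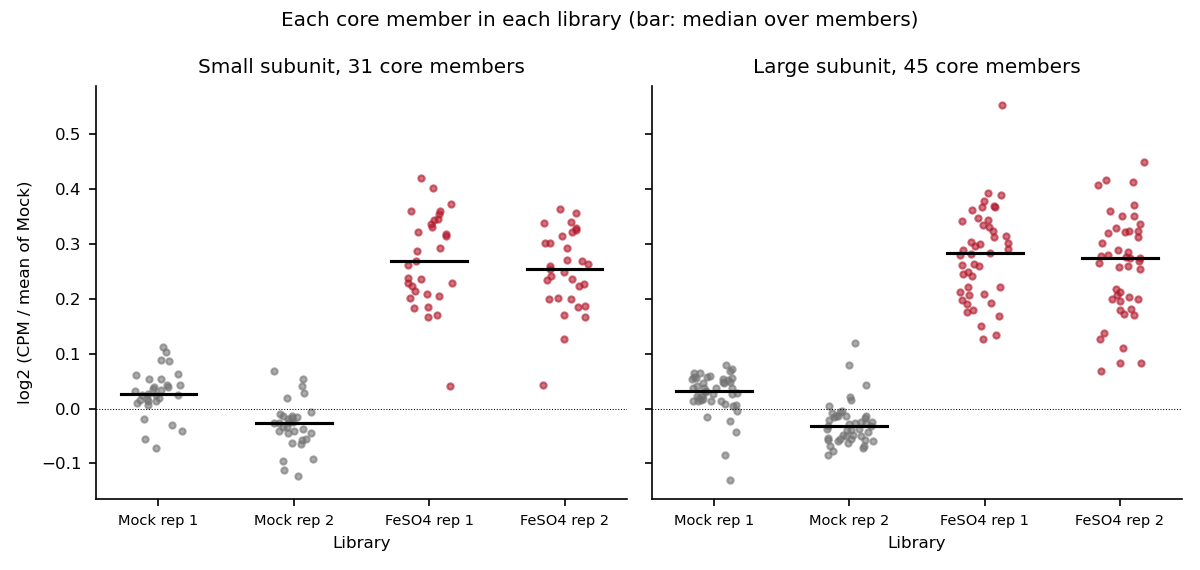
Each point is 1 core member in 1 library, as the log2 ratio of its CPM to its mean in Mock, for small (left, 31 genes) and large (right, 45 genes) subunit members. Bars are medians over members. All but 1 core member, Rps26, have both FeSO4 libraries above both Mock libraries.

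Transcript length moved with the result. Ribosomal protein transcripts are short, with a median of 737 bases among the members tested against 2669 bases among other genes with a length. Among these other genes, the median log2 fold change fell from 0.20 for transcripts under 500 bases through 0.15 for 750 to 1000 bases and 0.02 for 2000 to 3000 bases to -0.13 from 5000 bases on. The Mock libraries also differed by length: the median log2 ratio of replicate 2 to replicate 1 was -0.04 for other genes under 500 bases, -0.08 from 500 to 750 bases, -0.09 from 750 to 1000 bases and 0.09 from 5000 bases on. The members' medians were 0.30 under 500 bases (16 genes), 0.25 from 750 to 1000 bases (24 genes) and 0.28 from 1000 to 1500 bases (11 genes), and 66 of the 76 core members lay above the median of other genes of their length class. Among other genes under 1000 bases, 20.9% were higher (median 0.17), and of the 162 that also reached a mean of 100 CPM, 48.1% were higher (median 0.19).

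When the length trend of the other genes was removed from each library, an alternative added after seeing the data, 26 members were higher and 1 was lower, with a median of 0.11 (all genes: 9.61% higher, 7.76% lower). All 26 were also higher without this step, 7 of them small and 19 large subunit genes. Among the 26 were Rpl11, Rpl5, Rpl39, Rpsa and Rps20. Rpsa, Rps3, Rpl5 and Rps20, all among the 26, are entered with transcripts of 1861, 1908, 2045 and 3706 bases, so that the trend of longer transcripts was removed from them, and which isoform these cells used was not tested. Removing the trend with GC content alone left 72 higher (10.8% of all genes), and removing GC content and length together left 23 higher and 1 lower (8.61 and 6.44%). Removing the trend with expression level left 48 higher (9.63%), with a median of 0.22, and cyclic loess tested with limma-trend, which changes the scaling and the test together, left 43 (9.13%). Scaling by library size only gave 48 (7.14%), testing without a filter on low counts gave 48 (2.36%), and a block for the replicate number gave 74 (13.5%). The count of members called thus varied with the treatment of transcript length, and the part that length had in the difference was not tested further.

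**Figure D4:**
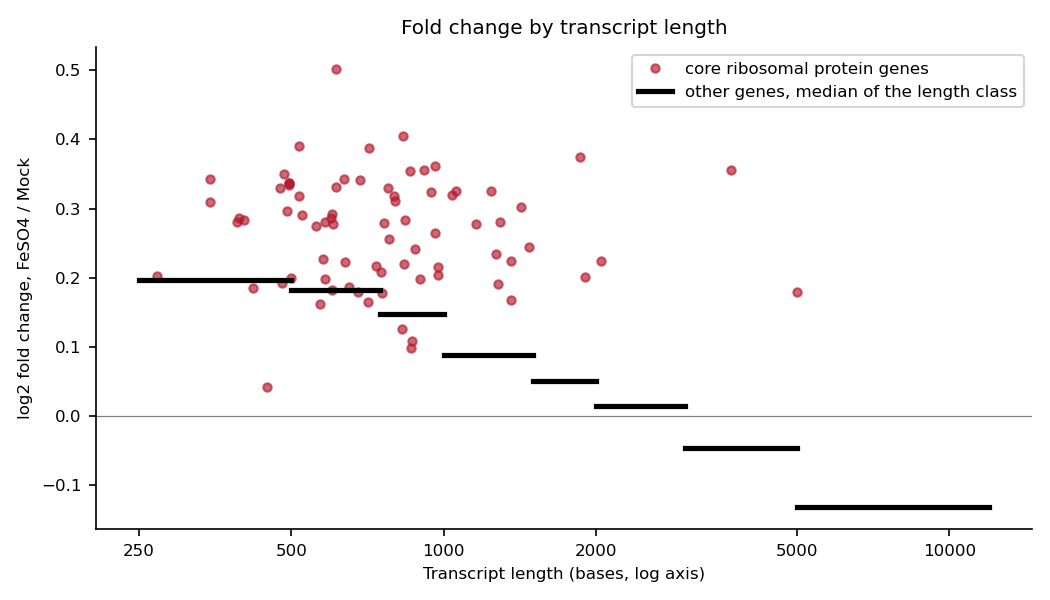
Log2 fold change of FeSO4 against Mock by transcript length (bases, log axis) for the 76 core members (red points), with the median of all other genes tested in each length class (black lines). The black lines fall from 0.20 to -0.13, and 66 of the 76 members lie above the line of their class.

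**Figure D5:**
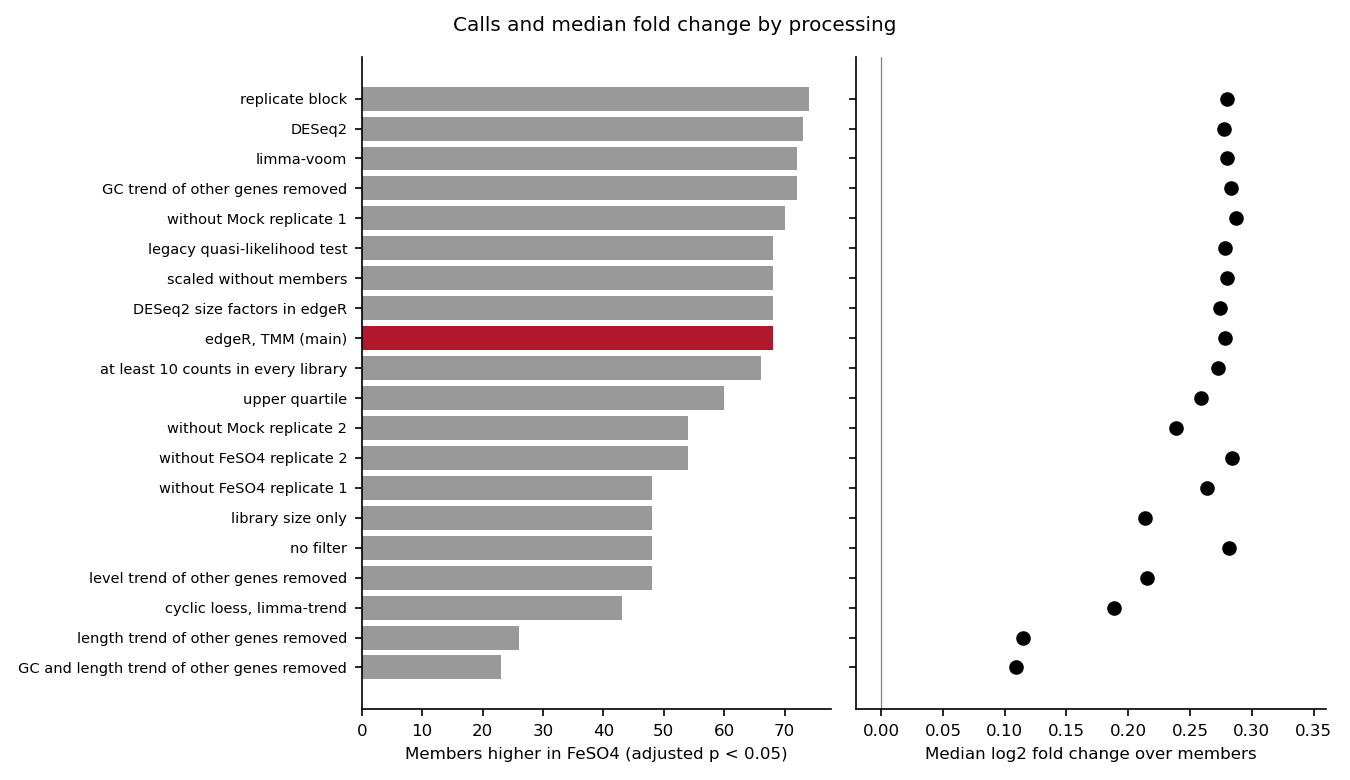
Number of members called higher with FeSO4 (adjusted p under 0.05, left) and their median log2 fold change (right) for each way of processing the counts, with the main analysis in red. The count ranges from 23 to 74 and the median from 0.11 to 0.29.

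Among the small subunit genes, Rpsa (ENSMUSG00000032518, chromosome 9) encodes a protein at the mRNA exit side of the 40S subunit that is also known as the laminin receptor. It was at 2833 and 2624 CPM in Mock and at 3647 and 3426 CPM in FeSO4, a log2 fold change of 0.37 ± 0.06 (adjusted p = 0.000484). Rps20, a protein of the head of the 40S subunit, was at 990.5 and 937 CPM in Mock and at 1248 and 1217 CPM in FeSO4 (0.36 ± 0.06, adjusted p = 0.000471). In both genes the lower FeSO4 library exceeded the higher Mock library, and with the length trend removed their fold changes were 0.33 and 0.39 (adjusted p = 0.000329 and 0.000117).

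Rps23, a protein of the decoding center, was at 945 and 914 CPM in Mock and at 1173 and 1176 CPM in FeSO4. Rps25 was at 639.6 and 666 CPM in Mock and at 815 and 839 CPM in FeSO4. Rps27a, made as a fusion with ubiquitin, was at 681 and 647 CPM in Mock and at 852 and 832 CPM in FeSO4. In none of these 3 genes did the groups overlap, and the log2 fold changes were 0.34 ± 0.06, 0.34 ± 0.06 and 0.34 ± 0.06 (adjusted p = 0.000605, 0.000628 and 0.000638). Rps2, which lies near the mRNA entry, was at 1507 and 1332 CPM in Mock and at 1875 and 1773 CPM in FeSO4 (0.36 ± 0.07, adjusted p = 0.00103). With the length trend removed, Rps25, Rps27a and Rps2 remained higher (adjusted p = 0.0398, 0.0226 and 0.00561), while Rps23 did not pass (adjusted p = 0.0518).

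Rps6, the substrate of the S6 kinases downstream of mTORC1, had means of 1732 ± 26.3 CPM in Mock and 2048 ± 27.2 CPM with iron (SD, n = 2 each) and rose by 0.24 ± 0.06 on the log2 scale (adjusted p = 0.00685). Rps3, which has a second role in DNA repair, was at 1418 and 1405 CPM in Mock and at 1662 and 1585 CPM in FeSO4 (0.20 ± 0.06, adjusted p = 0.0214). Rps3a, which with Rpsa and Rps6 drew the most counts of the small subunit, was at 1766 and 1719.8 CPM in Mock and at 2015 and 2001 CPM in FeSO4 (0.20 ± 0.06, adjusted p = 0.0185). Rps19, the gene most often mutated in Diamond-Blackfan anemia, was at 714 and 689 CPM in Mock and at 797 and 805 CPM in FeSO4 (0.19 ± 0.06, adjusted p = 0.0284). All 4 were called higher, with smaller estimates than the genes above, a difference that was not tested. Of the 4, only Rps3 also passed with the length trend removed (adjusted p = 0.0296), and Rps3, Rps3a and Rps19 were no longer called without FeSO4 replicate 1 (adjusted p = 0.184, 0.0973 and 0.109) or without Mock replicate 2 (adjusted p = 0.055, 0.0621 and 0.0955), nor Rps3a and Rps19 without FeSO4 replicate 2 (adjusted p = 0.0749 and 0.136).

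Rps28, Rps21 and Rps29 had the fewest counts of the core small subunit genes. Rps28 was at 216 and 203 CPM in Mock and at 235 and 247 CPM in FeSO4, Rps21 at 263 and 290.1 CPM in Mock and at 352 and 324 CPM in FeSO4 and Rps29 at 310.4 and 328 CPM in Mock and at 397 and 379 CPM in FeSO4. All 3 were called higher, by 0.20 ± 0.06, 0.29 ± 0.07 and 0.28 ± 0.06 (adjusted p = 0.0345, 0.00639 and 0.00416). Without FeSO4 replicate 1, Rps28 and Rps21 were not called (adjusted p = 0.0699 and 0.0809), and Rps28 was also lost without FeSO4 replicate 2 or Mock replicate 2 (adjusted p = 0.218 and 0.147). With the length trend removed, none of them passed, and the estimate for Rps28 was -0.04.

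Rps26 was the only core gene whose libraries overlapped between the groups, and it was singled out after its values were seen. Its difference from the other core genes was not tested. It was at 1400.3 and 1299 CPM in Mock and at 1388 and 1389.5 CPM in FeSO4, so that the groups overlapped. Its log2 fold change was 0.04 ± 0.06 (adjusted p = 0.681), the smallest in the core. With the length trend removed it was the 1 member called lower, at -0.16 (adjusted p = 0.0239). Rps15 and Rps16 also missed the threshold (adjusted p = 0.0529 and 0.0532), with fold changes of 0.20 ± 0.07 and 0.19 ± 0.07 and no overlap between the groups.

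In the large subunit, Rpl11 (ENSMUSG00000059291, chromosome 4) had the smallest p of all members. Rpl11 and Rpl5 bind 5S rRNA and, outside the ribosome, the ubiquitin ligase Mdm2. Rpl11 was at 853 and 837 CPM in Mock and at 1109 and 1126 CPM in FeSO4, a log2 fold change of 0.40 ± 0.06 (adjusted p = 0.000111). Its partner Rpl5 was at 1364 and 1350.4 CPM in Mock and at 1605 and 1565 CPM in FeSO4 (0.22 ± 0.06, adjusted p = 0.0108). Both genes rose, and both passed with the length trend removed, at 0.26 and 0.19 (adjusted p = 0.00207 and 0.010). Rpl11 kept its call in each of the 19 alternative fits at an adjusted p of 0.05. Rpl5 lost its call without FeSO4 replicate 1 (adjusted p = 0.0846), with the trend in GC content (0.0874), in GC content and length (0.198) or in level (0.0661) removed, with cyclic loess and limma-trend (0.15) and with scaling by library size only (0.0548). The difference between the changes of the 2 genes was not tested.

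Rpl39 (ENSMUSG00000079641, chromosome X), which lines the exit tunnel for the growing chain, had the largest fold change of all members called. It was at 318 and 378 CPM in Mock and at 510.4 and 475 CPM in FeSO4, a log2 fold change of 0.50 ± 0.07 (adjusted p = 0.000178). Its Mock libraries lay far apart, and its estimate ranged from 0.37 to 0.64 with single libraries left out. With the length trend removed it was 0.32 (adjusted p = 0.0139).

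Rpl32 was at 780.4 and 786 CPM in Mock and at 1010.2 and 1043 CPM in FeSO4 (0.39 ± 0.06, adjusted p = 0.000163). Rpl14 was at 730.0 and 699 CPM in Mock and at 921 and 947 CPM in FeSO4 (0.39 ± 0.06, adjusted p = 0.000207). Rpl7a was at 1224 and 1135 CPM in Mock and at 1494 and 1526 CPM in FeSO4 (0.36 ± 0.06, adjusted p = 0.000558). Each of these 3 genes was higher in both FeSO4 libraries, and each remained called with the length trend removed. Rpl36a, Rpl27 and Rpl17, the next by p, changed by 0.35 ± 0.06, 0.33 ± 0.06 and 0.33 ± 0.06 (adjusted p = 0.000604, 0.000745 and 0.000755). Reads that also fit a pseudogene were not counted, and the 3 rows of pseudogenes named for Rpl17 held 1.36% as many counts as Rpl17 itself.

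Rpl22, which developing αβ T cells depend on, was at 334 and 344 CPM in Mock and at 417 and 435 CPM in FeSO4 (0.33 ± 0.06, adjusted p = 0.00104). Rpl38, known for its role in the translation of Hox mRNAs, was at 191 and 178 CPM in Mock and at 233 and 235 CPM in FeSO4 (0.34 ± 0.06, adjusted p = 0.00122). Rpl13a, which can leave the ribosome to join the GAIT complex that silences inflammatory mRNAs, was at 1369.5 and 1362 CPM in Mock and at 1668 and 1569 CPM in FeSO4 (0.24 ± 0.06, adjusted p = 0.00733). All 3 rose, and with the length trend removed Rpl13a passed (adjusted p = 0.0263) while Rpl22 and Rpl38 did not (adjusted p = 0.143 and 0.16). Rpl13a lost its call without FeSO4 replicate 1 (adjusted p = 0.0971) and with cyclic loess and limma-trend (0.102). Rpl10a was at 994 and 902 CPM in Mock and at 1066 and 1005 CPM in FeSO4, a log2 fold change of 0.13 ± 0.06 that did not pass (adjusted p = 0.181), although the groups did not overlap. It passed with the GC trend removed (adjusted p = 0.0471).

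The P-stalk, which recruits the translational GTPases to the ribosome, is built from Rplp0, Rplp1 and Rplp2. Rplp0, the member with the highest CPM, was at 3720.3 and 3354 CPM in Mock and at 4082 and 3863 CPM in FeSO4. Rplp1 was at 1776 and 1637 CPM in Mock and at 2235 and 2066 CPM in FeSO4, and Rplp2 at 909 and 829 CPM in Mock and at 997 and 979 CPM in FeSO4. In each of the 3 genes the FeSO4 libraries lay above the Mock libraries, with log2 fold changes of 0.17 ± 0.06, 0.33 ± 0.06 and 0.19 ± 0.06 (adjusted p = 0.0777, 0.00142 and 0.0428). Rplp0 missed the threshold in edgeR and passed it in DESeq2, in limma-voom, with the replicate block (adjusted p = 0.0173), with the GC trend removed (adjusted p = 0.0251) and without Mock replicate 1 (adjusted p = 0.0203). Rplp2 lost its call with any library left out other than Mock replicate 1, and none of the 3 passed with the length trend removed.

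Rpl4 and Rpl3 drew the most counts of the large subunit after Rplp0. Rpl4 was at 2167 and 2125 CPM in Mock and at 2607 and 2683 CPM in FeSO4 (0.30 ± 0.06, adjusted p = 0.00145), and Rpl3, whose product lies at the peptidyl transferase center, at 2085 and 2036 CPM in Mock and at 2447 and 2367 CPM in FeSO4 (0.22 ± 0.06, adjusted p = 0.0113). Rpl3 also lost its call without FeSO4 replicate 1 (adjusted p = 0.0944), with cyclic loess and limma-trend (0.225), with the level trend removed (0.105) and with scaling by library size only (0.0558). At the other end, Rpl35 was at 271 and 264 CPM in Mock and at 328 and 342 CPM in FeSO4 (0.32 ± 0.06, adjusted p = 0.00132). Rpl24 was at 29.8 and 33.3 CPM in Mock and at 36 and 35.5 CPM in FeSO4 and did not pass (0.18 ± 0.09, adjusted p = 0.205). These levels were far below those of every other core member, and which transcripts the row of Rpl24 counts was not tested. Rpl4 remained higher with the length trend removed (adjusted p = 0.00445) and Rpl3 did not (adjusted p = 0.0501). Rpl8 and Rpl37, named after their values were seen, had the smallest changes in the core of the large subunit, at 0.10 ± 0.06 and 0.11 ± 0.06 (adjusted p = 0.295 and 0.234).

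The 41 tested members not named by rule had means of 339 to 1882 CPM in Mock. Their log2 fold changes ranged from 0.04 to 0.32, and 34 of them were called higher (10.9% of all genes tested were). The 10 core members that missed the threshold, 3 small and 7 large subunit genes, ranged from 0.04 to 0.20. They include Rpl24, whose CPM lay far below that of all other core members.

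Between the members, shares shifted within a narrow range. As a share of the counts on all members, which needs no scaling between libraries, 24 of the 76 core genes were larger in each FeSO4 library than in either Mock library, 24 were smaller and 28 overlapped. For CPM over all genes tested, both FeSO4 libraries lay above both Mock libraries in 30.1% and below them in 29.4%, so that the members' shares separated about as often as genes in general, and shares that sum to a fixed total must balance. The ratio of the mean shares ranged from 0.86 for Rps26 to 1.18 for Rpl39. Rpsa held 3.65 and 3.55% of member counts in Mock and 3.99 and 3.81% in FeSO4, and Rpl11 held 1.10 and 1.13% in Mock and 1.21 and 1.25% in FeSO4. In the other direction, Rps26 went from 1.81 and 1.76% to 1.52 and 1.55%, Rpl8 from 2.29 and 2.19% to 2.02 and 1.98%, and Rplp0 from a mean of 4.67% to 4.38%. These pairs did not overlap, and no test was made on them.

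Levels between genes can be compared per length only. On that scale the core members had a median of 1259 CPM per kb of transcript, and the 10th and 90th percentiles were 685 and 2139. The highest were Rplp1 (3896), Rps26 (3063) and Rplp0 (2765), and the lowest were Rpl24 (6.73), Rps20 (296) and Rpl35 (319). Rps20 and Rpl24 are entered with transcripts of 3706 and 4999 bases, far longer than those of other members, which lowers their value on this scale. Before division by length, Rps20 had a mean of 964 CPM in Mock. Rpl24 had 31.6 CPM, the lowest of the core, and Rpl38, the next, had 184.6 CPM. In the annotation used for length, the row of Rpl24 spans chr16:55966388-56009026 with 6029 exon bases. Which transcripts that row counts was not tested. Across the 76 core members, log2 fold change had a Spearman's rho of -0.07 with transcript length, -0.13 with the level per kb and -0.18 with GC content, given as descriptions over genes that share libraries.

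Of the 9 genes outside the core, 7 were tested and 2 were called higher (10.9% of all genes were). Rps27l, a paralog of Rps27 known as a target of p53, was at 78.3 and 83.1 CPM in Mock and at 102 and 106 CPM in FeSO4 (0.36 ± 0.07, adjusted p = 0.00197). Rpl36al, a paralog of Rpl36a, was at 171 and 161 CPM in Mock and at 199.6 and 188 CPM in FeSO4 (0.22 ± 0.07, adjusted p = 0.0259). Neither passed with the length trend removed. Rpl36al lost its call without FeSO4 replicate 1 (adjusted p = 0.221) or Mock replicate 2 (adjusted p = 0.113). Rpl22l1, the paralog of Rpl22, was at 23.5 and 30.2 CPM in Mock and at 34.8 and 31.3 CPM in FeSO4 (0.30 ± 0.12, adjusted p = 0.0801), with its Mock libraries far apart, and was called higher with the replicate block (adjusted p = 0.0478) and without Mock replicate 2 (adjusted p = 0.0123), a fit in which 1 Mock library is left and the spread comes from the FeSO4 pair. Rpl7l1, a paralog linked to ribosome assembly, was at 90.7 and 93 CPM in Mock and at 101 and 100.1 CPM in FeSO4 (0.13 ± 0.07, adjusted p = 0.194). Rps19bp1 encodes a protein that binds Rps19 and only shares the name, and it was at 18.5 and 17.7 CPM in Mock and at 19.8 and 22.9 CPM in FeSO4 (0.24 ± 0.12, adjusted p = 0.165).

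The remaining members outside the core had few counts. Rpl39l was at 0.665 and 0.813 CPM in Mock and at 1.4 and 0.486 CPM in FeSO4 (0.32 ± 0.52, adjusted p = 0.716). Rpl3l, known from muscle, had 1 count in each Mock library and 0 in each FeSO4 library, and Rpl10l, known from testis, had 0 counts in every library, so neither was tested. Rps4y2, at 4.76 and 4.26 CPM in Mock and at 4.61 and 3.54 CPM in FeSO4 (-0.15 ± 0.23, adjusted p = 0.704), is protein coding in the symbol table used and listed as Rps4l, a transcribed pseudogene, in RefSeq. It had the only estimate below 0.

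Ribosomal proteins whose symbols the rule does not take in moved the same way. Fau encodes a ribosomal protein fused to a ubiquitin-like protein, and Gnb2l1 encodes the 40S-bound scaffold Rack1. Fau was at 632 and 604 CPM in Mock and at 707 and 723 CPM in FeSO4 (0.21 ± 0.06, adjusted p = 0.0177), and Gnb2l1 at 1649 and 1499.7 CPM in Mock and at 1897 and 1772 CPM in FeSO4 (0.22 ± 0.06, adjusted p = 0.0218). Both were called higher (10.9% of all genes), and neither passed with the length trend removed.

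Other TOP transcripts, among them those of elongation and initiation factors, of proteins outside the translation machinery and the noncoding RNA Gas5, were higher in 11 of 20 genes tested (55%, all genes 10.9%) and lower in none, with a median log2 fold change of 0.21. The 4 of smallest p were Npm1 (0.45 ± 0.06, adjusted p = 0.0000538), which encodes the nucleolar protein nucleophosmin, the histone chaperone gene Nap1l1 (0.35 ± 0.06, adjusted p = 0.00051), Hnrnpa1 (0.33 ± 0.06, adjusted p = 0.000671) and Btf3 (0.34 ± 0.06, adjusted p = 0.000772). With the length trend removed, 11 were higher and 0 lower (all genes 9.61 and 7.76%), with Tpt1 no longer called and Eif4b gained (adjusted p = 0.0957 and 0.0368). Gas5, among the 11, had no transcript length, and its estimate stayed at 0.28. The median of the list was 0.15 by this step, while the estimate of Naca went from 0.28 to 0.41. Which isoforms of these genes the cells used was not tested, so the lengths entered may not be theirs.

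Among regulators of TOP mRNAs and of S6, 3 of 19 genes were higher (15.8%, all genes 10.9%) and 4 were lower (21.1%, all genes 9.17%), with a median of 0.01. There were 5 higher and 3 lower with the length trend removed (all genes 9.61 and 7.76%). By that step Rheb and Tsc2 lost their calls (adjusted p = 0.0237 and 0.030 before, 0.060 and 0.183 after), and Rps6kb1, Larp4 and Larp1 became called higher (adjusted p = 0.010, 0.0363 and 0.0294). Larp1 was at 0.09 ± 0.07 (adjusted p = 0.386) without it. Eif4ebp1 (0.66 ± 0.11, adjusted p = 0.000386), a translational repressor that mTORC1 inactivates, and Eif4e (0.36 ± 0.07, adjusted p = 0.00204), the cap-binding protein it holds, rose. Akt1s1 (-0.47 ± 0.10, adjusted p = 0.00262), which encodes the mTORC1 inhibitor PRAS40, and Eif4ebp2 (-0.29 ± 0.07, adjusted p = 0.00638) fell.

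Initiation factors by symbol were higher in 16 of 49 genes and lower in 4 (32.7 and 8.16%, against 10.9 and 9.17% of all genes), with a median of 0.13. Eif2s2 (0.50 ± 0.07, adjusted p = 0.0000558), the β subunit of eIF2, Eif1ax (0.39 ± 0.07, adjusted p = 0.00107) and Eif3e (0.33 ± 0.06, adjusted p = 0.00122) rose. Of the 4 lower, 3 are Eif2c1, Eif2c2 and Eif2c3, older symbols for Argonaute genes and not initiation factors, and the other is Eif4g3. Eif2c1 (-0.44 ± 0.08, adjusted p = 0.000655), the gene of Argonaute 1, had the smallest p of these. Removing the length trend gave 15 genes higher and 1, Eif2c1, lower (all genes 9.61 and 7.76%). Eif2s3y, among the 15, had no transcript length, and its estimate stayed at 0.20.

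The mitochondrial ribosomal proteins, a separate set of nuclear genes, were higher in 12 of 74 genes and lower in none (16.2% higher, against 10.9% of all genes, median 0.13). Once the length trend was removed, 4 were higher and 1 lower, and the 4 are a smaller share than the 9.61% of all genes. Those 4 were Mrpl18, Mrpl42, Mrpl51 and Mrps14 (adjusted p = 0.0086 for Mrps14). Without that step, Mrpl18 (0.43 ± 0.08, adjusted p = 0.00135), Mrpl42 (0.43 ± 0.09, adjusted p = 0.00246), Mrpl24 (0.33 ± 0.08, adjusted p = 0.00752) and Mrpl51 (0.31 ± 0.08, adjusted p = 0.00863) had the smallest p. Mrpl24 lost its call with the length trend removed (adjusted p = 0.0665). The mitochondrial ribosomal protein genes held 0.299 ± 0.0111% of gene counts in Mock and 0.315 ± 0.00712% in FeSO4 (SD, n = 2 each). Chaperones and assembly factors of ribosomal proteins were higher in 3 of 16 genes (18.8%, all genes 10.9%) and lower in none (median 0.10), led by the importin gene Ipo7 (0.52 ± 0.08, adjusted p = 0.000239), followed by Nap1l1 and Bccip (0.25 ± 0.07, adjusted p = 0.0258). Among these chaperones and factors, 3 were higher and 0 lower with the length trend removed (all genes 9.61 and 7.76%), and their median was 0.06, with Bccip no longer called and Ipo5 gained (adjusted p = 0.157 and 0.0164). The difference between any of these lists and the cytosolic ribosomal proteins was not tested.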

How the data were processed

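RNA was sequenced from 4 iTreg cultures (2 Mock, 2 FeSO4), grouped by their labels. The deposited values were raw counts per Ensembl gene, with no normalization by the authors. By the submitters' processing notes, reads were trimmed with Trim Galore 0.6.7, aligned with STAR 2.7.9a and counted with featureCounts (mm10). The paper's methods instead name mm9, STAR and DESeq, and the closing rows of the table carry the names used by HTSeq. Strand setting and annotation are not given in the sources used here. Reads of those closing rows were left out: no feature (4.36 to 6.03% of reads), ambiguous (3.78 to 3.91%), low quality (0.802 to 0.988%), not aligned (1.8 to 2.31%) and more than 1 alignment (4.27 to 4.62%). Symbols were matched by Ensembl ID to GENCODE M1 (32799 rows matched, 14930 did not), and 130 symbol matches were dropped as pseudogenes and 10 as Rps6k kinases. Transcript starts come from RefSeq (GRCm38.p6).

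Counts were analysed in R 4.3.3 with edgeR 4.0.16. Genes kept by filterByExpr (13732, with 99.95% of counts) were scaled by TMM and compared by the quasi-likelihood F test over all genes, FeSO4 against Mock, with Benjamini-Hochberg adjustment and a threshold of 0.05. The biological coefficient of variation was 8.24%. A standard error is the log2 fold change divided by the square root of F. Alternatives used DESeq2 1.42.0, limma 3.58.1, other scalings and filters, a replicate block, each library left out (the lone library of that group was then assumed to vary like the other group) and, added after seeing the data, trends with level, length or GC content removed (length and GC of the transcript with the longest coding sequence in GENCODE M1, known for 86.6% of genes kept and for all 83 members tested). Libraries of a group differed by more than sampling noise (chi-square of 11.4 and 9.35 per degree of freedom). No source mentions molecular identifiers, and intervals reflect counting error alone.

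Genes named singly were the 8 members of smallest p in each subunit, the 3 core members with most and fewest counts in each, members with roles outside the ribosome, all members outside the core, and at most 4 genes of each related list by p. Members, lists and the naming rule were chosen with earlier results of these data known. Some of the genes this rule names are not reported here.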

Additional observations from a re-analysis of the deposited data

Results flagged for a closer look

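Outside the ribosomal protein genes themselves, several measures were higher in each FeSO4 library than in either Mock library, and 2 are described here. Low-quality reads (0.802 and 0.929% of reads in Mock, 0.978 and 0.988% in FeSO4) were another. So were the share of mitochondrial ribosomal protein genes and the erythroid marker sum. Reads with more than 1 alignment, which no gene row includes, made up 4.42 and 4.27% of reads in Mock and 4.60 and 4.62% in FeSO4, a difference of the means of 0.264 percentage points. Rows of pseudogenes named for ribosomal protein genes (140 rows) held 0.00876 and 0.00892% of gene counts in Mock and 0.0104% in each FeSO4 library, a difference of 0.00157 percentage points. These rows are part of the gene counts, and with them added the difference in the share of ribosomal protein genes was 1.13 percentage points. Both differences have the direction of the ribosomal protein genes themselves, and neither was tested.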

How the results depend on the processing

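No member was called lower in any alternative other than those that removed a length trend. With the length trend of other genes removed, 26 members (7 small, 19 large subunit) were higher and 1, a small subunit gene, was lower, with medians of 0.11 for all members, 0.10 for the small and 0.14 for the large subunit. With GC and length trends removed together, 23 (5 and 18) were higher and 1, a small subunit gene, lower, with medians of 0.11, 0.093 and 0.12. Cyclic loess with limma-trend, which changed the scaling and the test together, gave 43 higher, 17 of them small subunit genes (medians 0.19, 0.19 and 0.19). With the level trend removed, 18 small subunit genes were higher (medians 0.22, 0.22 and 0.21). Scaling by library size only left 19 small subunit genes higher (medians 0.21, 0.21 and 0.22), and testing without a filter on low counts left 19. At the study's threshold, 1 member was higher, 0 in the small and 1 in the large subunit. The cause of these shifts was not tested beyond the construction of each alternative. Without single libraries, 48 to 70 members were higher, with medians of 0.24 to 0.29, and from 20 to 31 small (medians 0.22 to 0.27) and 28 to 39 large subunit genes (0.24 to 0.30). The difference in share ranged from 0.947 to 1.30 percentage points with single libraries left out, and it was not computed with the length trend removed. Removing FeSO4 replicate 1 left the fewest members higher. The estimate was below 0 in 8 core members with the length trend removed, against 0 in the main analysis. Among the members named by rule, single estimates changed sign for Rpl10a (-0.018), Rplp2 (-0.025) and Rps28 (-0.039) with the length trend removed, for Rps28 (-0.032) with both trends removed, for Rpl39l without FeSO4 replicate 1 (-0.60, range over libraries left out -0.60 to 0.92) and for Rps4y2 without FeSO4 replicate 2 (0.037, range -0.34 to 0.037). Over the 42 named members tested, 696 of the re-estimates kept direction and call, 88 lost the call, 8 gained it and 6 changed sign. Of the lost calls, 18 fell to removing GC content and length trends together and 13 to removing the length trend. Cyclic loess with limma-trend took 10, removing the level trend 8 and removing the GC trend 1. Scaling by library size only took 8, testing without a filter 7 and upper quartile scaling 3. The rest came from fits with a library left out. The replicate numbers were not treated as pairs: the deviations of same-numbered libraries had a correlation of 0.03 over genes kept and of -0.32 over members. With the replicate number as a block, 74 members were higher and 0 lower. Each SD here comes from only 2 libraries, and a gene at about 1 CPM had a standard error of 0.52.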
